A study of Homo sapiens with 6 samples.

Results

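The genes that turn membrane arachidonic acid into leukotrienes and prostaglandins were examined in K562 cells, an established human chronic myeloid leukemia line with erythroid features. The 9 genes, taken by name from the deposited values of 17066 gene symbols, were PLA2G4A, ALOX5, ALOX5AP, LTA4H, LTC4S, PTGS1, PTGS2, TBXAS1 and PTGES. A row was found for 8 of them, and PTGES was not analysed here. Strand-specific RNA-seq had been carried out on 6 samples, 2 replicates each of K562 lines stably carrying, in a PiggyBac transposon, an empty vector (CTR) or doxycycline-inducible cassettes for wild type C/EBPα (CEBPA) and for its p30 isoform (P30). Doxycycline at 200 ng/ml for 48 h was given to every line, CTR included, and no uninduced sample was analysed here. Each construct is represented by a single stable line, and whether a line is a clone or a pool is not given in the sources used here, so that a line's own differences and the effect of its transgene cannot be told apart. The wild type coding sequence can also be translated into p30 from an internal start codon. The legend of the study's western blot names both the full-length form and p30 for the CEBPA line after induction. CEBPA vs P30 is therefore not a comparison of cells without p30 and cells with it. The deposited value is 1 FPKM per gene and group, the number of sequenced fragments scaled to transcript length and to library size, with the replicates already pooled. The files used here hold no replicate spread, depth or test, so none is given, and every comparison describes these pooled values.

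As background, cytosolic phospholipase A2 frees arachidonic acid from membranes. In the leukotriene branch, 5-lipoxygenase, helped by its membrane partner FLAP, makes leukotriene A4, which LTA4 hydrolase turns into the neutrophil attractant leukotriene B4 and LTC4 synthase into the cysteinyl leukotrienes. In the prostanoid branch, cyclooxygenase 1 or 2 makes prostaglandin H2, from which terminal synthases form thromboxane, prostaglandin E2 and the other prostanoids. C/EBPα is a leucine zipper factor that drives granulocyte development, and mature neutrophils are a main source of leukotriene B4.

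The question was whether the pathway differed between cells with wild type C/EBPα, cells with p30 and control cells. In CEBPA, the FPKM of ALOX5AP, PTGS2 and PLA2G4A were higher than in CTR, while that of PTGS1 was lower. In P30, ALOX5 was at least 2-fold higher than in both other groups, and the other members compared lay within 2-fold of CTR on the scale used. In such bulk RNA, fewer cells with a transcript and less of it per cell cannot be told apart. LTC4S and TBXAS1 had similar values in the 3 groups. Differences were taken on the log2(FPKM + 1) scale, which understates the difference of low genes, and a gene was compared in a pair of groups where it had over 1 FPKM in at least 1 of them.

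**Figure D1:**
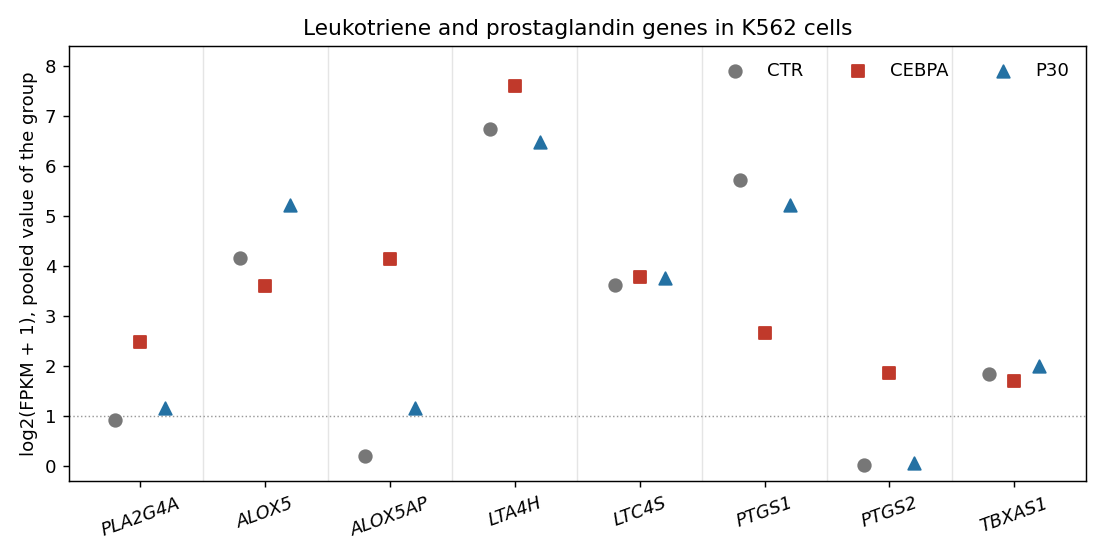
Levels of the 8 members with a row, as log2(FPKM + 1) on the y axis; each point is the authors' pooled value for CTR (circle), CEBPA (square) or P30 (triangle), without error bars because replicates were pooled, and the dotted line marks 1 FPKM. ALOX5AP and PTGS2 lie near the bottom in CTR (0.155 and 0.0180 FPKM) and well above it in CEBPA (16.7 and 2.62 FPKM), PTGS1 takes the opposite course, and ALOX5 is highest in P30.

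In CEBPA vs CTR, 3 of the 8 members compared were at least 2-fold higher in CEBPA, where 14.0% of all 13673 genes compared were. Of the 8, 1 (PTGS1) was at least 2-fold lower, against 6.92% of all genes. The median log2 difference was 0.50 over the members and -0.0087 over all genes. In CEBPA vs P30, 4 of 8 members were at least 2-fold higher in CEBPA and 2 were lower, against 13.1% and 5.79% of 13569 genes, with a median of 0.56 for the members and -0.036 for all genes. In P30 vs CTR, 1 of the 7 members compared, ALOX5, was at least 2-fold higher, against 1.02% of 12395 genes, and 0 were lower, against 0.613%. The median of the members was 0.16 there, and that of all genes 0.023. The 3 comparisons share their groups, so their values are not independent of each other, and with so few genes a share says little on the list as a whole.

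**Figure D2:**
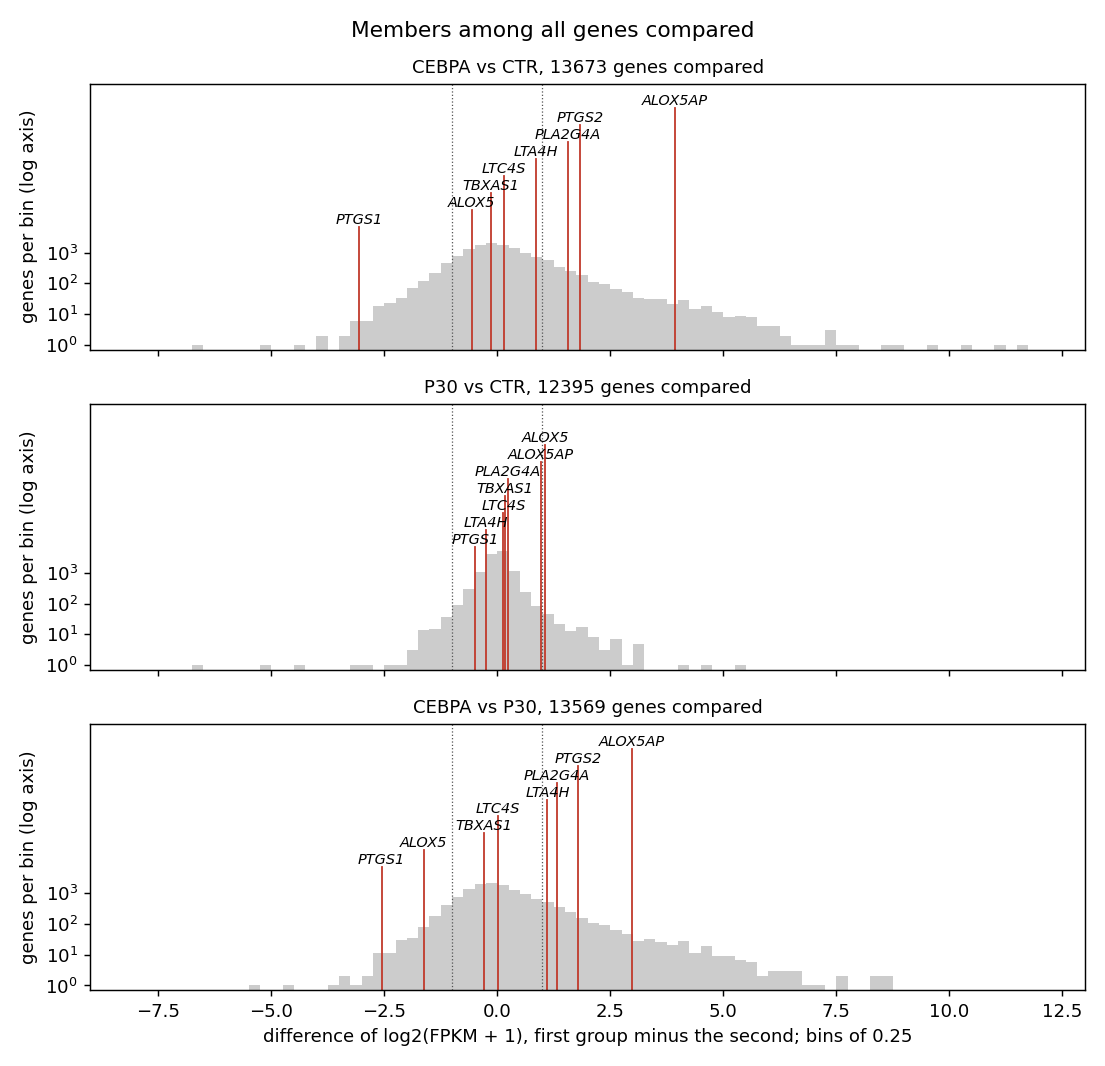
Differences of log2(FPKM + 1) for each pair of groups, first group minus the second; grey bars count all genes compared in bins of 0.25 on a log axis, red lines mark the members, line heights only separate the labels, and dotted lines mark a 2-fold difference. PTGS1 and ALOX5AP are the members farthest to the left and right in both comparisons with CEBPA, at -3.06 and 3.94 against CTR, within bars that reach from -6.61 to 11.7 there, whereas in P30 vs CTR ALOX5 (1.06) and ALOX5AP (0.96) are farthest to the right.

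PLA2G4A encodes cytosolic phospholipase A2, the enzyme that supplies the pathway, and lies on chromosome 1 (GRCh37, 186798081 to 186958113, plus strand). It had 0.905 FPKM in CTR and 1.25 in P30, against 4.60 in CEBPA. CEBPA was therefore the highest group, 5.09 times CTR and 3.68 times P30, with log2 differences of 1.56 and 1.32. The log2 difference of P30 from CTR was only 0.24.

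ALOX5 encodes 5-lipoxygenase, the enzyme that starts leukotriene synthesis (chromosome 10, GRCh37, 45869624 to 45941567, plus strand). Its values were 16.9 FPKM in CTR, 11.1 FPKM in CEBPA and 36.4 FPKM in P30. P30 stood above both other groups, at 2.15 times CTR and 3.28 times CEBPA. The log2 difference was 1.06 in P30 vs CTR, where 116 of 12395 genes had a larger rise. CEBPA differed from CTR by -0.57, inside the 2-fold limit, and from P30 by -1.63, where 129 of 13569 genes had a larger fall. ALOX5 was the only one of the 8 members whose P30 level was at least 2-fold above those of both other groups. Of the 5 granulocytic markers compared, described further on, 3 were at least 2-fold higher in P30 than CTR, against 1.02% of all genes. The others differed by -0.04 and 0.07. All 5 were at least 2-fold higher in CEBPA than in P30, against 13.1% of all genes, whereas ALOX5 was lower in CEBPA. The part of these markers in the ALOX5 difference was not tested.

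ALOX5AP encodes FLAP, the membrane protein that presents arachidonic acid to 5-lipoxygenase (chromosome 13, GRCh37, 31287615 to 31338563, plus strand). It had 0.155 FPKM in CTR and 1.25 in P30, against 16.7 in CEBPA. The log2 difference of 3.94 in CEBPA vs CTR was the largest rise among the members, and 128 of 13673 genes had a larger one. In CEBPA vs P30 the difference was 2.98, or 13.4 times in FPKM. P30 exceeded CTR by 0.96 on the log2 scale, just under the 2-fold limit, although the plain FPKM ratio was 8.07, since the CTR value is far below the added 1. With 0.1 added in place of 1, this difference was 2.41 and that of CEBPA vs CTR 6.04.

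The enzyme and its partner took different courses. For each FPKM of ALOX5AP there were 109 of ALOX5 in CTR and 29.2 in P30, but only 0.666 in CEBPA. CEBPA was the group in which both genes exceeded 5 FPKM, and its ALOX5 was the lowest of the 3 groups.

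The 250 bases upstream of the RefSeq start of ALOX5AP are shown because this gene had the largest rise of the members in CEBPA. They are given 5′ to 3′ from the plus strand at chr13:30713235-30713484 of GRCh38.p14, a build other than that of the FPKM values. Letters in capitals, here and further down, would mark a match to the C/EBP motif TTGCNNAA, its looser form TTNNGNAA, GATAAG or TATAAA on either strand, and this stretch holds none of them.
ALOX5AP: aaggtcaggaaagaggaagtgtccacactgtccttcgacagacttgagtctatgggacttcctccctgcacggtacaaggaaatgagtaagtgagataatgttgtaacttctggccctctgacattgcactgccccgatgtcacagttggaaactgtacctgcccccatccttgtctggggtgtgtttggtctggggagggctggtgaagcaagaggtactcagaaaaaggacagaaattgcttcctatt

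LTA4H encodes LTA4 hydrolase, which makes leukotriene B4 (chromosome 12, GRCh37, 96394531 to 96437298, minus strand). It was the most abundant member in each group, with 106 FPKM in CTR, 193 FPKM in CEBPA and 88.9 FPKM in P30. In CTR 952 of 17023 symbols had a higher FPKM, and in CEBPA 414. CEBPA was above CTR by 0.85 and above P30 by 1.11 on the log2 scale, so that the 2-fold limit was passed against P30 only. The log2 difference in P30 vs CTR was -0.26.

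LTC4S encodes LTC4 synthase, which opens the way to the cysteinyl leukotrienes (chromosome 5, GRCh37, 179220981 to 179223648, plus strand). It had 11.4 FPKM in CTR, 12.7 FPKM in CEBPA and 12.6 FPKM in P30. The 3 values lay within 0.15 of each other on the log2 scale. LTA4H exceeded LTC4S 9.32 times in CTR, 15.2 times in CEBPA and 7.03 times in P30. MGST2, a microsomal enzyme of the same family that can also form leukotriene C4, had more FPKM than LTC4S in each group, with 96.5 in CTR, 87.0 in CEBPA and 104 in P30.

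PTGS1 encodes cyclooxygenase 1, the form that most tissues keep on constantly (chromosome 9, GRCh37, 125132809 to 125157982, plus strand). It had 51.8 FPKM in CTR and 36.4 in P30, against 5.35 in CEBPA. CTR was 9.68 times and P30 6.81 times as high as CEBPA. The log2 difference of -3.06 in CEBPA vs CTR was exceeded by the fall of 10 of 13673 genes, and that of -2.56 against P30 by 17 of 13569. In P30 vs CTR the log2 difference was -0.50, well inside the 2-fold limit.

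PTGS2 encodes cyclooxygenase 2, the form induced by inflammatory signals (chromosome 1, GRCh37, 186640923 to 186650054, minus strand). It had 0.0180 FPKM in CTR and 0.0468 in P30, against 2.62 in CEBPA. Only CEBPA was over 1 FPKM. PTGS2 had no row for P30 vs CTR and was not compared there. CEBPA exceeded CTR by 1.83 and P30 by 1.79 on the log2 scale. A plain ratio would rest on values that few genes fall below, since only 4.09% of symbols had a lower FPKM in CTR. With 0.1 added in place of 1, these differences were 4.53 and 4.21.

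The cyclooxygenase pair thus differed both in amount and in make-up. FPKM are per length, so the levels of both genes may be added. Their sum was 51.8 FPKM in CTR and 36.5 in P30, against 7.97 in CEBPA. PTGS2 made up 0.0348% of it in CTR, 0.128% in P30 and 32.9% in CEBPA. PTGS1 still exceeded PTGS2 in CEBPA, by 2.04 times.

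The upstream sequences of this pair are shown because their levels went in opposite directions in CEBPA. RefSeq lists a single start for PTGS2 and a pair of starts for PTGS1, and the FPKM, which are per gene, do not separate the latter. PTGS2 is read from the minus strand at chr1:186680424-186680673, and PTGS1 from the plus strand at chr9:122370283-122370532 for the upstream and chr9:122375052-122375301 for the downstream start, all in GRCh38.p14. Capitals mark the matches.
PTGS2: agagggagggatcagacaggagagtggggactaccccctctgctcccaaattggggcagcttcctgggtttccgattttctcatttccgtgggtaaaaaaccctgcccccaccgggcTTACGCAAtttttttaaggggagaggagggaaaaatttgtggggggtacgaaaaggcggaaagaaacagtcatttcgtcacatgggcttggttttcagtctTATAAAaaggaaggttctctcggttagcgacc
PTGS1, upstream start: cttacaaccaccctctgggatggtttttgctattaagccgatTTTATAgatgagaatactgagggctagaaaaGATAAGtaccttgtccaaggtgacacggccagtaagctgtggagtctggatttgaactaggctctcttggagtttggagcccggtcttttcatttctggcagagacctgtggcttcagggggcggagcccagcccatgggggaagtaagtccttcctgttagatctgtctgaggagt
PTGS1, downstream start: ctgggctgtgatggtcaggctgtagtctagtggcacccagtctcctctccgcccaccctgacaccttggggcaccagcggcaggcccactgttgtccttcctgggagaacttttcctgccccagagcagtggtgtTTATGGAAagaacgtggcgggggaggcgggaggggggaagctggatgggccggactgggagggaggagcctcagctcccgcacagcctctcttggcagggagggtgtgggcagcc

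In PTGS2 the match TTACGCAA to TTGCNNAA, read on the opposite strand, spans the bases from 133 to 126 before the start, and a TATAAA begins 32 bases before it. The upstream start of PTGS1 has GATAAG, a motif of GATA factors, at 177 to 172 bases before it, and a TATAAA on the opposite strand farther up, while the downstream start has TTATGGAA, a match to the looser C/EBP form, at 115 to 108 bases. RefSeq promoters, of 250 bases before and 50 after the start, were found for 8 of the 9 members, in 9 entries. Among these 9 entries TTGCNNAA occurred before the start in that of PTGS2 alone. Of all 35116 entries, 10.5% hold it. This share and those that follow also count matches in the 50 bases after the start. Every match to TTGCNNAA is also a match to TTNNGNAA, which occurred in entries of PTGS2, PTGS1 and LTA4H before the start, and in 36.8% of all entries. Before the start, GATAAG occurred in an entry of PTGS1 alone, and TATAAA in entries of PTGS2, PTGS1 and TBXAS1. GATAAG is in 6.36% and TATAAA in 11.5% of all entries. CCAAT and GGGCGG were searched as well, and are in 34.6% and 45.0%. Before the start, CCAAT occurred in the entry of PTGS2, and GGGCGG in entries of LTC4S, PTGS1 and PTGES. A match describes these letters only, and binding was not measured in these data.

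TBXAS1 encodes thromboxane synthase, known from platelets and macrophages (chromosome 7, GRCh37, 139476850 to 139720125, plus strand). It had 2.58 FPKM in CTR, 2.25 FPKM in CEBPA and 3.004 FPKM in P30, and no pair of groups differed by more than 0.30 on the log2 scale. Its annotated start overlaps HIPK2 on the opposite strand. PTGS2 overlaps the antisense RNA PACERR, and ALOX5 and LTA4H overlap unnamed antisense lncRNAs. PTGS1 overlaps an unnamed lncRNA on its own strand, whose reads a strand setting would not separate. Whether Cuffdiff used the strand of the reads is not given in the sources used here, and reads of antisense partners may then not be told apart.

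The order of the members by FPKM shifted with the group. It was LTA4H, PTGS1, ALOX5, LTC4S, TBXAS1, PLA2G4A, ALOX5AP and PTGS2 in CTR. P30 had the same order except that ALOX5 and PTGS1 changed places, with the practically equal values of 36.43 and 36.42 FPKM. PLA2G4A and ALOX5AP were as close in P30, at 1.252 and 1.249 FPKM. In CEBPA, ALOX5AP moved from place 7 to place 2 and PTGS1 from place 2 to place 5. Which neighbours in this order differ beyond replicate error cannot be said from pooled values.

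Other genes of the pathway were taken from a list of 57 symbols, PTGDR2 under both of its names, of phospholipases, lipoxygenases, synthases, receptors and enzymes of breakdown and transport, of which 26 had a row. In CEBPA vs CTR, 22 of these were compared, with 3 at least 2-fold higher and 3 lower in CEBPA, beside 14.0% and 6.92% of all genes. In CEBPA vs P30, 3 of 21 were higher in CEBPA and 1 was lower, beside 13.1% and 5.79%. In P30 vs CTR, 0 of 22 passed the limit in either direction, beside 1.02% and 0.613%. The shares of these genes that were higher in CEBPA thus lay near those of all genes. The median log2 difference of these genes was -0.21 for CEBPA against CTR, -0.25 for CEBPA against P30 and 0.025 for P30 against CTR.

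HPGD, which encodes hydroxyprostaglandin dehydrogenase, the main enzyme of prostaglandin inactivation, had 1.48 FPKM in CTR and 1.37 in P30, against 77.4 in CEBPA. On the log2 scale CEBPA exceeded CTR by 4.98, where 50 genes had a larger rise, and P30 by 5.05, where 38 had. On this scale it was farther above CTR than any of the members, although its plain FPKM ratio of 52.3 was below the 108 of ALOX5AP, whose CTR value was lower. PTGR2, a reductase of the next step of inactivation, had 30.1 FPKM in CTR, 41.1 FPKM in CEBPA and 33.4 FPKM in P30. ABCC4, an exporter of prostaglandins, had 14.4 FPKM in CTR, 6.70 FPKM in CEBPA and 19.1 FPKM in P30, and its log2 difference was -1.38 in CEBPA vs P30 but -0.996 against CTR, just short of the limit. ABCC1, which exports leukotriene C4, had between 15.4 and 16.8 FPKM in the 3 groups.

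Of the terminal prostanoid synthases, AKR1C3, an aldo-keto reductase that can form prostaglandin F2α, had 5.84 FPKM in CTR and 6.76 in P30, against 17.1 in CEBPA. Its log2 difference was 1.40 in CEBPA vs CTR, and its level is uncertain because close relatives in the AKR1C family may share reads. FAM213B, another prostaglandin F synthase, had 8.26 FPKM in CTR and 5.74 in P30, against 2.64 in CEBPA, with a log2 difference of -1.35 in CEBPA vs CTR. PTGES2, a prostaglandin E synthase, had 36.1 FPKM in CTR and 36.2 in P30, against 19.5 in CEBPA, short of the limit at -0.85. PTGES3, better known as a cochaperone, stood at 283, 292 and 224 FPKM in the same order of groups.

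Among the receptors, PTGER3, a receptor of prostaglandin E2, had 7.82 FPKM in CTR and 7.86 in P30, against 24.4 in CEBPA, so that CEBPA was higher by 1.53 than CTR and by 1.52 than P30 on the log2 scale. TBXA2R, the thromboxane receptor, had 4.42 FPKM in CTR and 3.09 in P30, against 1.05 in CEBPA, a log2 difference of -1.40 in CEBPA vs CTR. PTGIR, the prostacyclin receptor, had 1.39, 0.403 and 0.170 FPKM in CTR, P30 and CEBPA, and its log2 difference from CTR was -1.03 in CEBPA and -0.77 in P30. LTB4R, the high affinity receptor of leukotriene B4, had 13.8 FPKM in CTR and 15.4 in P30, against 26.5 in CEBPA, short of the limit at 0.89. PTGDR2, a receptor of prostaglandin D2, had 2.79 FPKM in CTR, 1.80 FPKM in CEBPA and 3.45 FPKM in P30. No row was found for the cysteinyl leukotriene receptors CYSLTR1 and CYSLTR2 or for PTGER1, PTGER2 and PTGER4, which were not analysed here.

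Further upstream, the phospholipases PLA2G6 and PLA2G12A passed the limit in no pair of groups. PLA2G6 had from 8.01 to 9.51 FPKM and PLA2G12A from 31.4 to 43.2 FPKM. PLA2G10, a secreted phospholipase, had 0.875 FPKM in CEBPA, against 0.0292 in CTR and 0.0186 in P30, and stayed below the 1 FPKM needed for comparison. ALOX12, the platelet-type lipoxygenase, had 1.31 FPKM in CTR and 1.40 in P30, against 0.343 in CEBPA, with a log2 difference of -0.78 in CEBPA vs CTR. COTL1, a protein that binds 5-lipoxygenase, had 81.3 FPKM in CTR and 95.1 in P30, against 53.8 in CEBPA. COTL1 was therefore highest in P30 and lowest in CEBPA, with log2 differences from CTR of only -0.59 in CEBPA and 0.23 in P30. ALOX5, TBXAS1, MGST2, PLA2G12A, ABCC4, PTGES2, PTGES3, ALOX12 and PTGDR2 were among the genes with the same order of groups. This order is therefore not particular to COTL1.

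**Figure D3:**
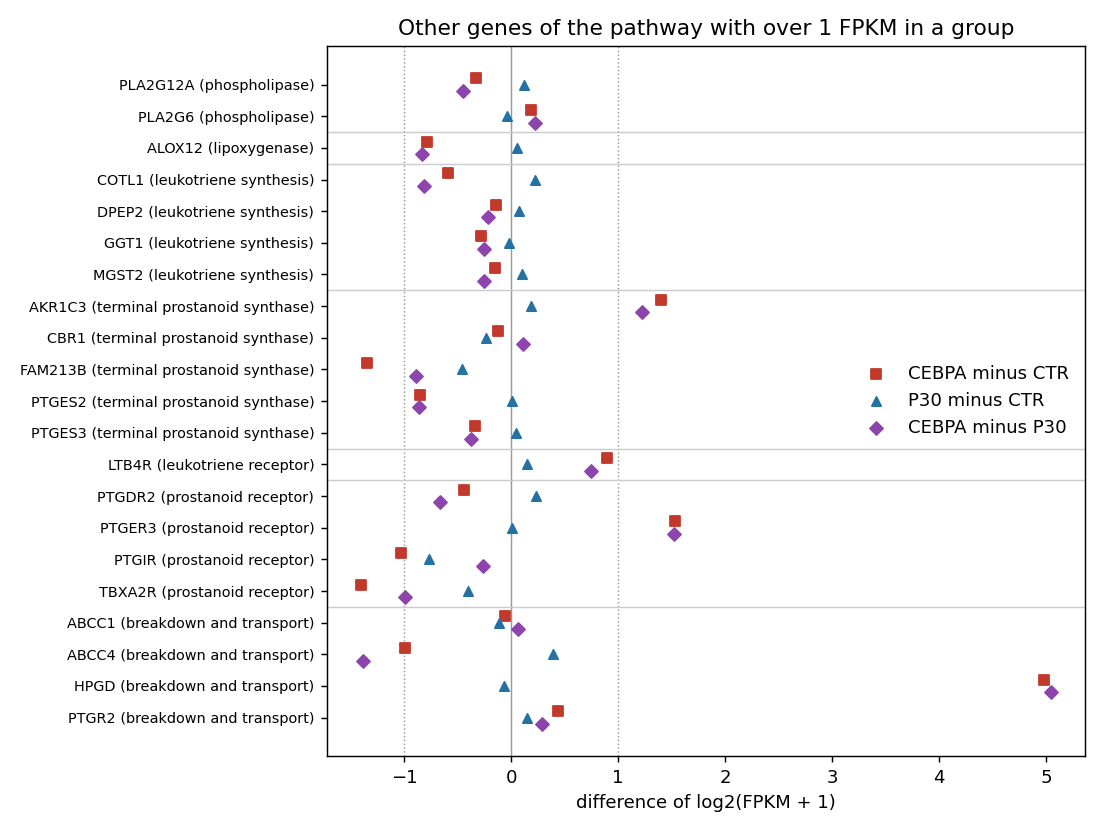
Differences of log2(FPKM + 1) for the 21 other pathway genes with over 1 FPKM in a group, by class, for CEBPA minus CTR (squares), P30 minus CTR (triangles) and CEBPA minus P30 (diamonds); dotted lines mark a 2-fold difference, there is 1 pooled value per group, and MGST3, with several rows, is left out. The triangles lie between -0.77 (PTGIR) and 0.39 (ABCC4), while the squares of HPGD, PTGER3 and AKR1C3 lie right of the upper line and those of TBXA2R, FAM213B and PTGIR left of the lower one.

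The cell type was checked on marker lists. Of 8 erythroid markers, 7 had a row and all 7 exceeded 1 FPKM in each group, with a summed level of 1864 FPKM in CTR and 1270 in P30, against 703 in CEBPA. In CEBPA, 6 of these 7 were at least 2-fold lower than in CTR and 5 than in P30, beside 6.92% and 5.79% of all genes. TFRC, the transferrin receptor, differed little, with 133 FPKM in CTR, 134 FPKM in CEBPA and 145 FPKM in P30. In P30, 2 of the 7 were at least 2-fold lower than in CTR, beside 0.613% of all genes. They were ALAS2 (log2 difference -1.71) and HBG1 (-1.09). HBG1 is a fetal globin gene whose close copy may share its reads, and it had 389 FPKM in CEBPA and 410 in P30. Of 10 granulocytic markers, 6 had a row, and their sum was 50.0 FPKM in CTR and 75.4 in P30, mostly from LYZ (45.5 and 47.6), against 10206 in CEBPA, mostly from S100A9, S100A8 and LYZ. All 5 that were compared were at least 2-fold higher in CEBPA than in CTR and than in P30, where 14.0% and 13.1% of all genes were. In P30, 3 of the 5 were at least 2-fold higher than in CTR, beside 1.02% of all genes. These were S100A9 (11.1 against 0.416 FPKM), S100A8 (9.54 against 0.551 FPKM) and CEBPE (4.31 against 0.560 FPKM). Among the markers with a row, none of the erythroid or granulocytic ones was listed at 0. Mast cells and basophils, another source of leukotrienes, showed little signal, with 4 of 8 markers having a row and each of these below 1 FPKM in each group (sums of 1.72, 1.38 and 2.36 FPKM in CTR, P30 and CEBPA). Of 6 megakaryocyte and platelet markers, 5 had a row, with sums of 13.5, 14.2 and 64.9 FPKM in the same order, where PPBP alone had 0.0705 FPKM in CTR and 51.1 in CEBPA, GP9 was listed at 0 in CTR and PF4 at 0 in P30. Of the 3 compared in CEBPA vs CTR, 1 (PPBP) was at least 2-fold higher and 0 were lower, beside 14.0% and 6.92% of all genes. ITGA2B, the only one of this list over 1 FPKM in each group, had a log2 difference of -0.12 there. Of 6 monocyte and macrophage markers, 5 had a row, with sums of 507, 584 and 436 FPKM in that order, nearly all from CD68, while CSF1R was at 0.111 FPKM in CTR, against 1.54 in P30 and 1.79 in CEBPA. In CEBPA vs CTR, the log2 differences of the 4 compared were 1.33 for CSF1R, 0.79 for CD14, 0.60 for MSR1 and -0.23 for CD68. CSF1R was also above CTR in P30, by 1.19. It was the 1 of 4 compared in P30 vs CTR that was at least 2-fold higher, beside 1.02% of all genes. The others differed by 0.20 to 0.22. Most erythroid markers and the granulocytic ones compared thus differed in CEBPA together with ALOX5AP, PTGS2, PLA2G4A and PTGS1. So did PPBP and CSF1R, but the other markers compared on their lists stayed within 2-fold of CTR. Some erythroid and granulocytic markers and, of the monocyte ones, CSF1R alone differed at least 2-fold from CTR in P30 together with ALOX5. The part of these markers in those differences was not tested.

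Genes with the most similar levels were sought for the 6 members with a 2-fold difference in any pair of groups, as the smallest Euclidean distance of log2(FPKM + 1) over the 3 groups among 13693 genes. PTGS1 was nearest to the blood group gene RHD, with 55.2 FPKM in CTR, 7.10 FPKM in CEBPA and 34.4 FPKM in P30 (distance 0.37), and to S100A1 (0.42). ALOX5AP was nearest to the kinase gene BMX, with 0.325, 21.0 and 1.22 FPKM in the same order (0.37), and to the amino acid transporter SLC7A7 (0.43). ALOX5 was nearest to RP6-159A1.3 (0.23) and WAS (0.36), the Wiskott-Aldrich syndrome gene, which had 17.0, 14.0 and 31.7 FPKM. PTGS2 was nearest to OR51E2 (0.032) and GYS2 (0.045), PLA2G4A to RP11-1029J19.4 (0.063) and C19orf67 (0.093), and LTA4H to AP000318.2 (0.19) and C14orf166 (0.20). These distances rest on 3 pooled values per gene, and low genes lie close to each other by their level alone.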

How the data were processed

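RNA from 6 K562 samples (CTR, CEBPA and P30, 2 replicates each) was sequenced by the authors with a stranded kit, in separate runs on different instruments, whose effect cannot be examined in pooled values. Per the labels and the methods of the study, reads were aligned to hg19 with TopHat2 and assembled with Cufflinks on a Gencode annotation. The authors deposited FPKM estimated by Cuffdiff, 1 value per gene and group, in 3 tables that each hold a pair of groups. The rule that chose the rows of each table and Cuffdiff's library normalization are not given in the sources used here, and depth is unknown from FPKM, so no interval or test was computed.

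A group's FPKM was equal in both tables that hold it, for 14712 symbols in CTR, 16585 in CEBPA and 14614 in P30. Differences of log2(FPKM + 1) were taken between 2 groups for each row in which either of them exceeded 1 FPKM. The limit was 2-fold. Computations were tested on simulated data. Members, gene lists and motifs were chosen with earlier results of these data known. Genes named are the members, pathway genes over 1 FPKM that differed 2-fold in any pair of groups, receptors, up to 4 markers per list and the 2 nearest genes of each member with a 2-fold difference. PTGES2, PTGES3, MGST2, PLA2G6, PLA2G10, PLA2G12A, ALOX12, COTL1, PTGR2, ABCC1 and PTGDR2 were named, and the 6 motifs chosen, after values had been seen. Positions are from Gencode 44 mapped to GRCh37, and promoters from RefSeq in GRCh38.p14. Alternatives were a pseudocount of 0.1, centring, no filter, a filter at 5 FPKM, genes in all 3 tables, summed rows and a 1.5-fold limit. Python 3.11.15, numpy 2.4.6, pandas 2.3.3 and matplotlib 3.10.9 were used.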

Additional observations from a re-analysis of the deposited data

How the results depend on the processing

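No paired analysis was possible because replicates were pooled before deposit, so that none could be left out either. For want of a replicate spread, log2 values count as moved where they differed by over 0.20, the scaled median absolute deviation of all P30 vs CTR differences, and counts where they differed by over 1.5 times; both are working limits. Of 192 recomputed values for 38 results, the members' median in P30 vs CTR was the only one that changed sign. That 0 single gene differences of 2-fold or more did so was fixed in advance and is no check. A pseudocount or a choice of genes cannot reverse a gene's difference, and summing rows left every member's value unchanged. Centring moves a difference only by the median of all genes, which lay far inside the 2-fold limit in each comparison. Within the limits stayed 85 of 102 counts and medians and 83 of 90 single gene values. The 7 single gene values that moved did so with pseudocount 0.1 and were all larger (ALOX5AP, PTGS2 and PLA2G4A).

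With only genes over 5 FPKM, which leaves out PLA2G4A, PTGS2 and TBXAS1 (and ALOX5AP in P30 vs CTR), 1 member was at least 2-fold higher in CEBPA than in CTR and 2 than in P30, and the members' median was 0.15 for CEBPA against CTR, 0.0094 for CEBPA against P30 and -0.059 for P30 against CTR. With only genes in all 3 tables, which leaves out PTGS2, the medians of CEBPA were again 0.15 against CTR and 0.0094 against P30. With pseudocount 0.1, 2 members (ALOX5 and ALOX5AP) were at least 2-fold higher in P30 vs CTR, as with a 1.5-fold limit. Of the other pathway genes, those lower in CEBPA vs CTR were 5 with pseudocount 0.1, 7 with the 1.5-fold limit and 1 over 5 FPKM. Those lower in CEBPA vs P30 were 4 and 7, and those lower in P30 vs CTR 1 and 1, with pseudocount 0.1 and the 1.5-fold limit. Those higher in CEBPA vs P30 were 5 with the 1.5-fold limit. Shares of all genes were taken with the main settings only, so the counts with other settings have no such share beside them.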
